A study of Mus musculus with 27 samples.

Results

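CD40 and the receptors for the B cell survival factor BAFF signal through a shared set of adaptor proteins, ubiquitin ligases and one kinase, and the genes described here are 10 of this set. They were taken by gene symbol from the count files: the receptors Tnfrsf13c and Tnfrsf13b, the adaptors Traf1, Traf2, Traf3, Traf5 and Traf6, the ligases Birc2 and Birc3, and the kinase gene Map3k14. They are 10 of the 54532 genes counted, and all 10 passed the filter on low counts in every comparison.

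The RNA came from splenic B cells of wild-type (WT) C57BL6 mice, purified by negative selection and kept in culture for 3 h. In the first experiment 4 libraries each were made from unstimulated cells, cells with LPS, cells with LPS and 1 µM disulfiram (DSF), cells with IL-4 and an antibody to CD40 (IL4CD40), and cells with IL4CD40 and 1 µM DSF. A second experiment held 1 library each of unstimulated cells, of both stimuli alone, and of both stimuli with 1 µM DSF or with 1 µM ibrutinib, an inhibitor of Btk. Stimulated cells without a drug were given vehicle, which the second experiment's labels name as DMSO. The label of the unstimulated library there names DMSO too, as does the paper's name for its unstimulated group. The titles of the first experiment's unstimulated libraries name no vehicle. LPS is a bacterial lipid that B cells sense through a Toll-like receptor, the antibody to CD40 stands in for the CD40 ligand of helper T cells, and DSF is a drug against alcohol dependence that inhibits aldehyde dehydrogenase. The study treats the 4 libraries of a group as biologically independent samples, and the labels do not say which mouse each came from.

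In a resting B cell TRAF3 and TRAF2 hold the cIAP ligases on the kinase NIK and so keep NIK short-lived. When BAFF or CD40 ligand binds, the receptor draws this complex away, TRAF3 is degraded, and NIK builds up and drives the non-canonical NF-κB pathway, in which the Nfkb2 product is processed and pairs with RelB. CD40 also feeds the canonical NF-κB pathway through TRAF2, TRAF5 and TRAF6, and TRAF6 is the adaptor by which Toll-like receptors such as that for LPS reach the same pathway.

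Each library held between 17804851 and 23632992 gene counts in the first experiment, and the 10 genes had between 269 and 22222 counts a library there. Levels are given as CPM, the gene count relative to the library size after TMM scaling, and levels of different genes are compared only in FPKM, the deposited value per length. The 4 unstimulated libraries formed 2 pairs, libraries 1 and 2 against libraries 3 and 4. A chi-square statistic of their counts, divided by the number of genes, was 84.8 to 90.7 between the pairs against 2.86 and 6.64 within them. Across the other 4 groups it was 3.40 to 27.2, with the upper end between libraries 1, 2 and 3, 4 of the IL4CD40 group (15.6 to 27.2). Of the genes averaging 50 or more counts in a group, 421 spanned 2-fold or more over the 4 IL4CD40 libraries, against 1653 in unstimulated cells, 64 with LPS, 68 with LPS and DSF and 180 with IL4CD40 and DSF. The summed level of 10 B cell markers was 7406 to 12341 CPM in unstimulated cells and 3800 to 9287 CPM in the other groups of the first experiment, so the label of B cells holds. The 11 myeloid markers summed to 949 to 1028 CPM in unstimulated cells, 733 to 775 with LPS, 476 to 486 with LPS and DSF, 364 to 405 with IL4CD40 and 375 to 453 with IL4CD40 and DSF. Mpeg1 alone read 559 to 588 CPM with LPS, 315 to 323 with LPS and DSF and 143 to 179 with IL4CD40. Lyz2, Csf1r (13.8 to 15.9 against 45.3 to 56.3 CPM), Adgre1, Csf3r and Cd68 were lower with LPS than with IL4CD40. Mpeg1, Cd14 and Itgam were higher and the rest overlapped, so the sum does not order these groups for every marker. In the second experiment's unstimulated library the sum was 391 CPM, of which Mpeg1 alone read 353 CPM. Lyz2 read 10.5 CPM there, against 417 to 626 CPM in the first. The 10 T cell markers summed to at most 56.4 CPM in any library. Since bulk RNA was measured, fewer cells of a type and less RNA per cell cannot be told apart.

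The pairs of unstimulated libraries differed in genes of the set itself. Traf1 read 142 and 144 CPM in libraries 1 and 2 and 40.3 and 40.2 CPM in libraries 3 and 4, a ratio of 3.55. Tnfrsf13b and Tnfrsf13c went the other way, at 2.41 and 1.79 times as much in libraries 3 and 4, and Traf5 was at 1.51 times. For the other 6 genes the ratio of libraries 1 and 2 to 3 and 4 lay between 0.835 and 1.24. The unstimulated library of the second experiment read 121 CPM for Traf1 and 177 CPM for Tnfrsf13c, next to libraries 1 and 2. It read 94.4 CPM for Traf5, above all 4, and 91.1 CPM for Tnfrsf13b, below all 4. Every change against unstimulated cells is therefore given with all 4 libraries and, where it matters, with each pair alone, an alternative chosen after these values had been seen. An adjusted p against either pair alone rests on the spread within that pair and within the stimulated group. The gap between the pairs does not enter it, so it does not measure how far unstimulated libraries vary.

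**Figure D1:**
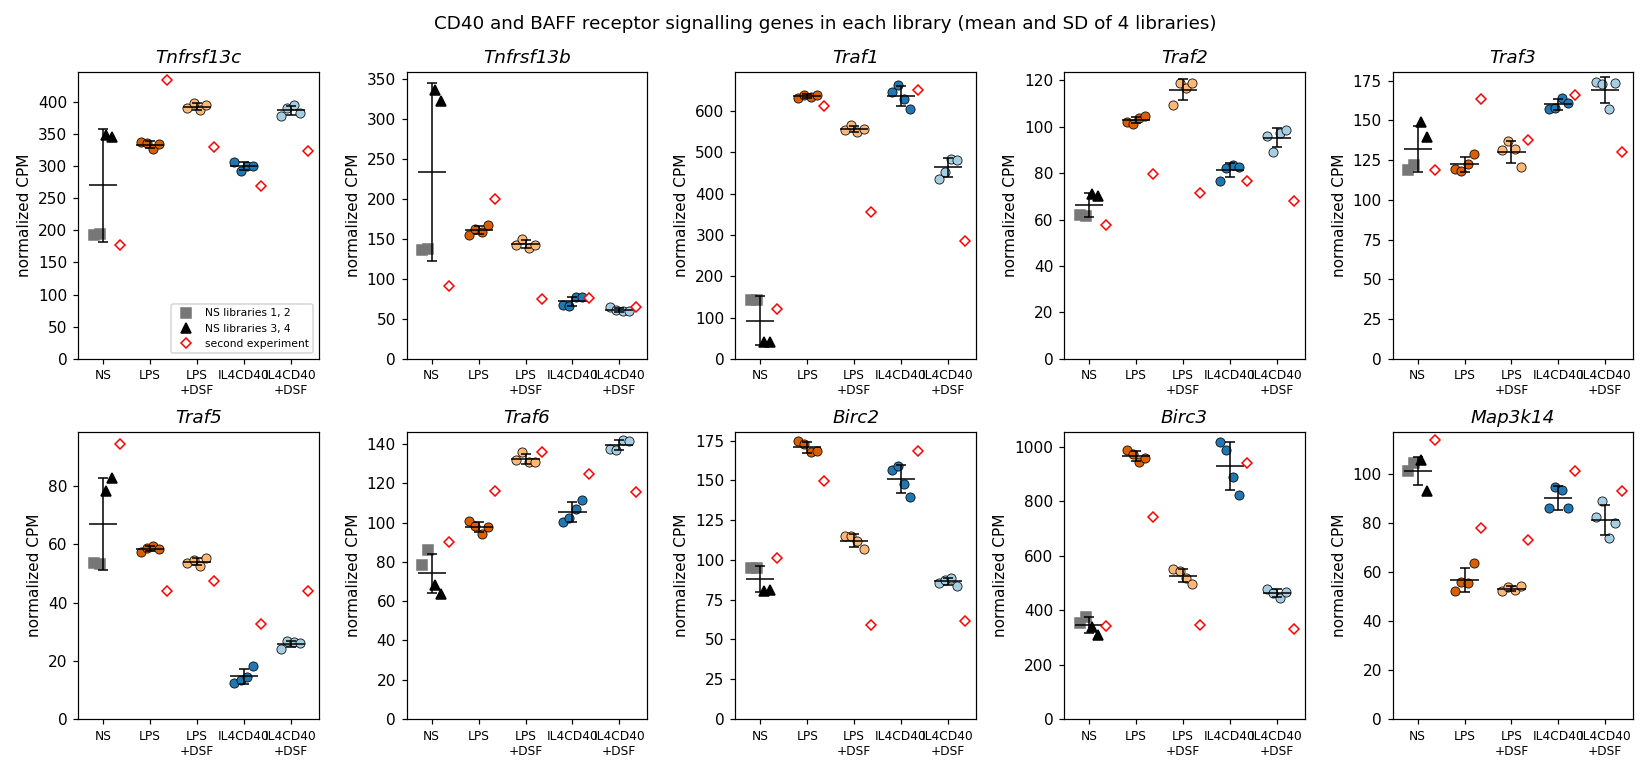
Normalized CPM of each gene (vertical axes, from 0) in the 5 groups of the first experiment (points: 4 libraries a group; line and bar: mean and SD) and in the single libraries of the second (red diamonds). Unstimulated libraries 1 and 2 (squares) and 3 and 4 (triangles) stand apart for Traf1, Tnfrsf13b, Tnfrsf13c and Traf5. In the stimulated groups the spread is narrower for these genes, and in the IL4CD40 group Traf5 runs from 12.3 to 18.2 CPM and Birc3 from 824 to 1016 CPM.

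The stretches before the start sites of 3 genes are shown, since several genes of the set are known targets of the NF-κB factors that it controls. Traf1 and Birc3 had the largest rises with stimulation, and Traf3 was the only member with a match to the NF-κB binding consensus (the kappaB consensus). The sequences are from RefSeq on GRCm38.p6, end at the base before the start site and run 5′ to 3′ on the gene's own strand. Capitals mark matches to the looser outline of that site, which is GGG, then 5 bases of any kind, then CC, searched on both strands with overlaps allowed.
Traf1, chr2:34961773-34962022, minus strand: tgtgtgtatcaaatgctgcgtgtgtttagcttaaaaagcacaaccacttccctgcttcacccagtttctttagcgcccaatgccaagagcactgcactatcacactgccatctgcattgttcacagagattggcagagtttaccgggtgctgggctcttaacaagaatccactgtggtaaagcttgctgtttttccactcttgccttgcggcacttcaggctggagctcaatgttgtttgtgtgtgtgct
Birc3, chr9:7873171-7873420, minus strand: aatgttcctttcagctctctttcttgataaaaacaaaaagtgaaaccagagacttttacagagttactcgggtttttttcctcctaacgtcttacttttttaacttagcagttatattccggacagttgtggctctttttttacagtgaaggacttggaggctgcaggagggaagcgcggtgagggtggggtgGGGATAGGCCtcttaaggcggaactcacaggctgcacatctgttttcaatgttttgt
Traf3, chr12:111166120-111166369, plus strand: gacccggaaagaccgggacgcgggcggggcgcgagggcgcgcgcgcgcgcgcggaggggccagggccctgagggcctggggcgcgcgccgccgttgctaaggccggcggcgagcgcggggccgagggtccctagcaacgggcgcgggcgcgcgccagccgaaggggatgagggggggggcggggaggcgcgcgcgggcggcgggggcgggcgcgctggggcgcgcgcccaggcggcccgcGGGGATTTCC
Among 32851 stretches of 250 bases before RefSeq start sites, 45.8% held the looser outline and 7.25% held the kappaB consensus, every match to which is also one to the outline. All 10 genes had at least 1 stretch, in 11 stretches in all. The looser outline was found in 8 of the 10 genes and was absent from this window in Traf1 and Birc2, and the consensus was found in Traf3 alone, as GGGGATTTCC at bases 10 to 1 before the start. These letters are a description of the windows only.

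Per length and by group mean, Tnfrsf13c and Birc3 were the 2 most abundant transcripts of the set in all 4 stimulated groups, and Tnfrsf13c and Tnfrsf13b were so in unstimulated cells. Tnfrsf13c averaged 130 ± 41 FPKM (SD, n = 4) in unstimulated cells and 148 to 188 FPKM in the stimulated groups. Birc3 averaged 68.0 ± 6.3 FPKM without stimulus, 189 ± 3.5 with LPS and 188 ± 21 with IL4CD40. The lowest were Traf6 at 9.30 ± 1.3 FPKM in unstimulated cells, Map3k14 at 8.50 ± 0.72 FPKM with LPS, and Traf5 at 3.23 ± 0.51 FPKM with IL4CD40.

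**Figure D2:**
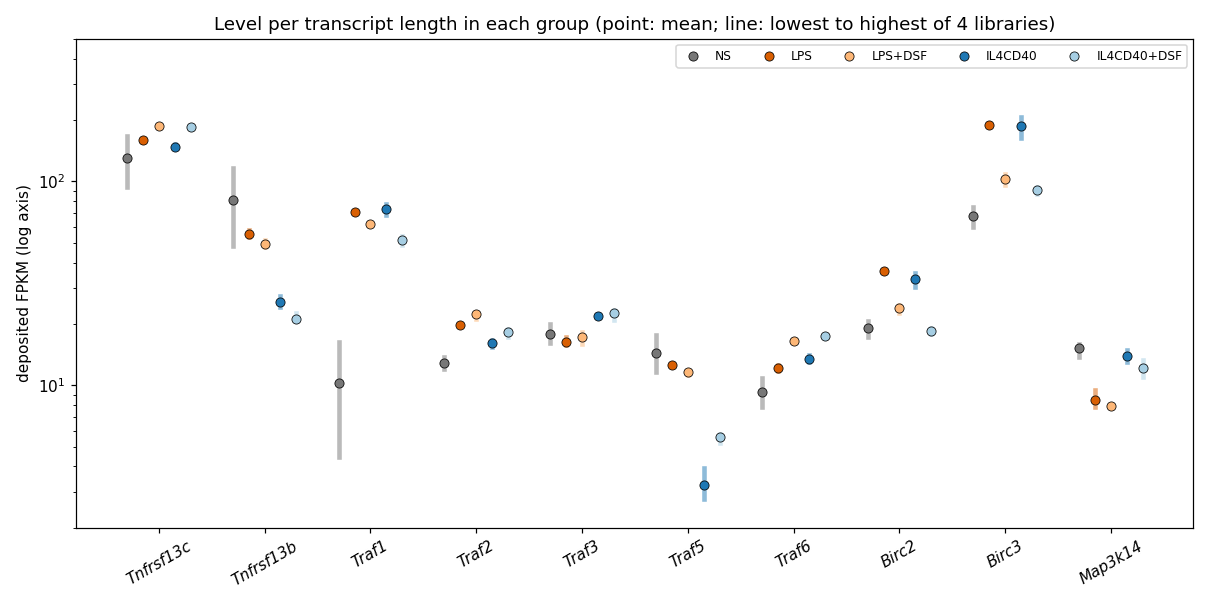
Deposited FPKM (log axis) of the 10 genes in the 5 groups of the first experiment, as the mean (points) and the lowest to highest of 4 libraries (lines). Traf5 drops to 3.23 FPKM with IL4CD40, and Birc3 and Tnfrsf13c lie at the top in every stimulated group.

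Of the 10 genes, 6 changed with LPS against unstimulated cells, where 62.9% of all genes tested did (edgeR's quasi-likelihood test, Benjamini-Hochberg adjusted p under 0.05). Of these, 5 rose and 1 fell, where 29.6% of all genes rose and 33.3% fell. With IL4CD40 against unstimulated cells 8 changed (background 62.5%), 6 up (background 30.4%) and 2 down (32.1%). DSF changed 8 of them in LPS-stimulated B cells (background 71.1%), 4 up (35.1%) and 4 down (36%). It changed 9 in IL4CD40-stimulated B cells (background 61.8%), 4 up (30.1%) and 5 down (31.6%). Between the stimuli themselves 7 differed (background 39.7%), of which 2 were higher with IL4CD40 (17.3%) and 5 lower (22.3%). With 10 genes, these shares are coarse, and they are read only as a description beside the backgrounds. What follows rests on single genes and on the size of their changes.

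The splits in direction depend on the scaling. With total counts in place of TMM the median log2 fold change of all genes tested was -0.27 for LPS and -0.19 for IL4CD40 against unstimulated cells, 0.14 between the stimuli, and -0.21 and -0.16 for DSF with LPS and with IL4CD40, against -0.05, -0.04, 0.01, 0.00 and -0.02 with TMM. The splits were then 4 up and 4 down, 5 up and 3 down, 4 up and 3 down, 1 up and 6 down, and 3 up and 5 down in that order. Shares over all genes were taken only in the main fits with TMM. Counts under the other settings therefore have no background beside them and are not read against all genes. Changes are given on the TMM scale, and a gene whose direction turned with total counts is named as such.

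Tnfrsf13c (chr15:82221743-82224369, minus strand, mm10) encodes the BAFF receptor, through which BAFF keeps mature B cells alive. It read 338, 336, 326 and 335 CPM with LPS and 390.1, 398, 387 and 396 CPM with LPS and DSF, so that every library with DSF was above every library without. DSF raised it by 0.25 ± 0.04 on the log2 scale (SE, edgeR adjusted p = 1.4e-06, 4 libraries against 4). In IL4CD40-stimulated B cells it read 307, 292, 301 and 300.1 CPM without DSF and 378, 390.5, 395 and 383 CPM with it, again without overlap. The change was 0.31 ± 0.04 (adjusted p = 0.000106). With total counts the rise with LPS was 0.04 and did not pass (adjusted p = 0.288), so that this gene rose relative to the bulk of transcripts there. In the fit of all 20 libraries the DSF change with LPS also missed the threshold (0.24, adjusted p = 0.160).

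Against unstimulated cells the Tnfrsf13c change was 0.30 ± 0.21 with LPS (adjusted p = 0.231) and 0.20 ± 0.21 with IL4CD40 (adjusted p = 0.421), which were not past the threshold. The unstimulated libraries read 193, 195, 348 and 345 CPM. Against libraries 1 and 2 alone LPS gave 0.78 (adjusted p = 5.37e-14), and against libraries 3 and 4 alone it gave -0.03 (adjusted p = 0.631). The same holds for IL4CD40, with 0.65 and -0.14. In order of mean level the groups ran from unstimulated cells through IL4CD40 and LPS to the DSF groups, and only the first and the last neighbouring pairs of groups overlapped. The small difference between the stimuli, lower with IL4CD40 (-0.16 ± 0.04, adjusted p = 0.00856), was lost with total counts (-0.02, adjusted p = 0.651) and in the fit of all 20 libraries (adjusted p = 0.450).

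Tnfrsf13b (chr11:61126755-61149372, plus strand) encodes TACI, a second receptor for BAFF and one for APRIL, found at high levels on marginal zone B cells and known to restrain B cell numbers. Its level was 155, 162, 159 and 167 CPM with LPS and 67.5, 66.5, 77.4 and 76.7 CPM with IL4CD40. The groups did not overlap, and the difference of -1.16 ± 0.06 (adjusted p = 2.1e-08) is a level 2.23-fold lower with IL4CD40. With DSF the gene read 143, 150.0, 138 and 143 CPM under LPS and 65.0, 60.9, 59.7 and 59.8 CPM under IL4CD40. DSF lowered it by a small amount under both stimuli, at -0.15 ± 0.04 (adjusted p = 0.00265) and -0.29 ± 0.06 (adjusted p = 0.00192), without overlap between the groups. Both calls were lost when all 20 libraries were fitted together (adjusted p = 0.530 and 0.378), a fit in which the spread of the unstimulated libraries enters.

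Against unstimulated cells Tnfrsf13b fell with IL4CD40 by 1.64 ± 0.31 on the log2 scale (adjusted p = 0.00157), and the fall passed against libraries 1 and 2 alone (-0.90) and against 3 and 4 alone (-2.13). The second experiment, with 1 library a condition, gave only -0.27 for IL4CD40, and a rise of 1.13 for LPS. With LPS the change in the first experiment was -0.54 ± 0.31 (adjusted p = 0.156). It turned with the unstimulated libraries used, from 0.23 (adjusted p = 8.09e-05) against libraries 1 and 2 to -1.01 (adjusted p = 1.85e-14) against libraries 3 and 4. Leaving out unstimulated library 1 or 2 alone brought the fall to -0.70 and past the threshold (adjusted p = 0.0464 and 0.0472). The 5 markers of marginal zone B cells summed to 622 to 1678 CPM over the unstimulated libraries, with the higher values in libraries 3 and 4 (1607 to 1678 CPM). Most of that range was Cr2 alone, which ran from 119 to 1027 CPM. Dtx1 ran from 205 to 323, Mzb1 from 186 to 256, Cd9 from 26.3 to 99.9 and Cd1d1 from 16.5 to 72.2 CPM. For these genes the range is given without the libraries it came from. The B cell markers, which also hold Cr2, split too, at 7477 and 7406 CPM against 12341 and 12296 CPM in libraries 3 and 4. The erythroid sum did so at 3.63 and 2.78 against 15.7 and 18.2 CPM. The myeloid, dendritic and NK sums were lower in libraries 3 and 4. The part of these markers in the Tnfrsf13b level was not tested.

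Traf1 (chr2:34941750-34961772, minus strand) encodes an adaptor with no RING domain that joins TRAF2 and the cIAPs at the receptor and is a known NF-κB target. It read 142, 144, 40.3 and 40.2 CPM in unstimulated cells, 631, 639.5, 633 and 640.4 CPM with LPS, and 647, 664, 630.3 and 605 CPM with IL4CD40. Every stimulated library lay far above every unstimulated one. The rise was 2.80 ± 0.45 on the log2 scale with LPS (adjusted p = 0.000664) and 2.85 ± 0.45 with IL4CD40 (adjusted p = 0.000511). It was 2.16 and 2.18 against unstimulated libraries 1 and 2 and 4.01 and 4.05 against 3 and 4, so its size but not its direction depends on them. The stimuli did not differ in Traf1 past the threshold (-0.004 ± 0.04, adjusted p = 0.951), and the sign turned with total counts (0.13, adjusted p = 0.0239).

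With DSF Traf1 read 554, 567, 549 and 557 CPM under LPS and 437, 453, 483 and 482 CPM under IL4CD40. Both groups lay below their stimulus alone without overlap, and still above all unstimulated libraries. The change was -0.18 ± 0.04 on the log2 scale under LPS (adjusted p = 0.000176), and -0.52 ± 0.05 under IL4CD40 (adjusted p = 1.13e-05), a level 1.43-fold lower. The change with IL4CD40 exceeded that with LPS by -0.34 ± 0.06 (adjusted p = 0.00115 for the difference, 16 libraries). In the fit of all 20 libraries these 3 calls were lost (adjusted p = 0.592, 0.189 and 0.770), while the values kept their sign at -0.19, -0.46 and -0.27.

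Traf2 (chr2:25517982-25546940, minus strand) encodes the adaptor that carries the cIAPs to CD40 and to TRAF3. Its levels were 62.0, 61.6, 71.2 and 70.2 CPM in unstimulated cells, 102, 101, 104 and 104 CPM with LPS and 76.8, 82.3, 83.5 and 82.5 CPM with IL4CD40. It rose by 0.64 ± 0.07 with LPS (adjusted p = 5.76e-05) and by 0.35 ± 0.08 with IL4CD40 (adjusted p = 0.00322), and was lower with IL4CD40 than with LPS by -0.35 ± 0.04 on the log2 scale (adjusted p = 5.35e-05). With DSF it ranged from 109 to 119 CPM under LPS and from 89.2 to 98.5 CPM under IL4CD40. These changes of 0.19 ± 0.04 (adjusted p = 0.000186) and 0.17 ± 0.05 (adjusted p = 0.0126) depended on the scaling, being -0.02 and 0.02 with total counts.

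Traf3 (chr12:111166370-111267153, plus strand) encodes the adaptor whose loss frees NIK. Its levels moved least: 119, 122, 149 and 139 CPM in unstimulated cells, 118 to 129 CPM with LPS and 157 to 164 CPM with IL4CD40. It was higher with IL4CD40 than with unstimulated cells (0.33 ± 0.09, adjusted p = 0.00882) and than with LPS (0.38 ± 0.04, adjusted p = 2.81e-05). With LPS it did not pass (-0.11 ± 0.08, adjusted p = 0.280). The DSF change under LPS, 0.11 ± 0.05 (adjusted p = 0.0372), was lost on leaving out any one of libraries 1, 2 and 3 of either group (adjusted p = 0.0810 to 0.221) and became -0.10 with total counts. Under IL4CD40 it was 0.02 ± 0.05 (adjusted p = 0.722). RNA levels do not report how much TRAF3 protein is degraded. Its annotated span on the plus strand overlaps the minus-strand gene 4930595D18Rik.

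Traf5 (chr1:191997205-192092559, minus strand), an adaptor for CD40 that is close kin of TRAF3, had the clearest difference between the stimuli. It read 53.4, 53.3, 78.2 and 82.9 CPM in unstimulated cells and 57.3, 58.9, 59.5 and 58.4 CPM with LPS. With IL4CD40 it read 12.3, 13.4, 14.6 and 18.2 CPM, below every other library of the first experiment. The difference between the stimuli was -2.01 ± 0.10 (adjusted p = 1.59e-08), a level 4.02-fold lower with IL4CD40. Against unstimulated cells the log2 change was -2.15 ± 0.19 (adjusted p = 2.03e-05), with -1.85 and -2.40 against either pair of unstimulated libraries. With LPS the change of -0.19 ± 0.15 did not pass (adjusted p = 0.297), and it turned from 0.14 (adjusted p = 0.0260) against libraries 1 and 2 to -0.43 (adjusted p = 3.12e-07) against libraries 3 and 4.

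DSF brought Traf5 up under IL4CD40 and did not do so under LPS. With IL4CD40 and DSF it read 24.1, 26.7, 26.4 and 25.9 CPM, each above the highest library without DSF and below all of the other 3 groups. The rise was 0.76 ± 0.11 (adjusted p = 9.76e-05), or 1.70-fold, and Traf5 remained lower than in unstimulated cells (-1.37 ± 0.16, adjusted p = 6.25e-05). Under LPS it read 53.6, 54.5, 52.5 and 55.4 CPM with DSF, a change of -0.10 ± 0.05 (adjusted p = 0.0643). Without any one of the 4 LPS libraries this fall did pass (-0.12 to -0.13, adjusted p = 0.0285 to 0.0476). The difference between the DSF changes was 0.87 ± 0.11 (adjusted p = 1.37e-05), and it was past the threshold in each alternative run except a minimum log2 fold change of 1. The annotated span of Traf5 also holds Mir3473c, Gstp-ps and, on the other strand, Gm26879, and the strand setting of the counting is not given in the sources used here.

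Traf6 (chr2:101678429-101701669, plus strand) encodes the adaptor shared by CD40 and the Toll-like receptors. It read 78.2, 86.1, 68.4 and 63.6 CPM in unstimulated cells, 101, 98.3, 94.4 and 97.5 CPM with LPS and 100.3, 102, 107 and 112 CPM with IL4CD40. It rose by 0.40 ± 0.09 with LPS (adjusted p = 0.00424) and by 0.56 ± 0.09 with IL4CD40 (adjusted p = 0.000813). With DSF it went on upward, to 132, 136, 131 and 131 CPM under LPS and 137, 137, 142 and 142 CPM under IL4CD40, above every library of the other 3 groups. The DSF changes were 0.45 ± 0.04 (adjusted p = 3.07e-10) and 0.35 ± 0.05 (adjusted p = 6.4e-05). With TMM, both stimuli and DSF under both stimuli raised Traf6 past the threshold, as they did Traf2. With total counts this held for Traf6 except for LPS against unstimulated cells (0.17, adjusted p = 0.184), while Traf2 lost its rises with DSF.

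Birc2 and Birc3 encode cIAP1 and cIAP2, the ligases that mark NIK for degradation and that attach ubiquitin chains at CD40. The genes lie side by side on the minus strand of chromosome 9 in mm10, at chr9:7818227-7837064 and chr9:7848699-7873186, 11634 bases apart, and are paralogs, so that reads they share could be split between them. Birc3 read 354, 376, 339 and 308 CPM in unstimulated cells, 987, 973, 945 and 959 CPM with LPS and 1016, 987, 889 and 824 CPM with IL4CD40. It rose by 1.49 ± 0.07 with LPS (adjusted p = 9.28e-07) and by 1.49 ± 0.10 with IL4CD40 (adjusted p = 6.9e-06), or 2.81-fold for both. These rises stayed between 1.37 and 1.61 with either pair of unstimulated libraries. The stimuli themselves differed by -0.06 ± 0.07 in Birc3, which did not pass (adjusted p = 0.505).

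DSF lowered Birc3 by more than any other member under both stimuli in the first experiment. It read 549, 542, 518 and 497 CPM with LPS and DSF and 478, 463, 445 and 467 CPM with IL4CD40 and DSF. These 8 libraries lay below all libraries of the stimuli alone and above all unstimulated libraries. The change was -0.86 ± 0.04 under LPS (adjusted p = 2.9e-15) and -1.07 ± 0.07 under IL4CD40 (adjusted p = 1.23e-06), levels 1.82-fold and 2.10-fold lower. The difference between these changes, -0.20 ± 0.09, did not pass (adjusted p = 0.133), although it did without library 4 of the IL4CD40 group (-0.26, adjusted p = 0.0228). What was left above unstimulated cells was 0.60 ± 0.08 with LPS (adjusted p = 0.00012) and 0.43 ± 0.08 with IL4CD40 (adjusted p = 0.000881), and with total counts these were 0.20 and 0.12 and not past the threshold.

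Birc2 moved with its neighbour at lower levels. It read 95.1, 95.1, 80.6 and 81.2 CPM in unstimulated cells, 175, 173, 168 and 168 CPM with LPS and 156, 159, 148 and 139 CPM with IL4CD40. The rises were 0.96 ± 0.07 (adjusted p = 9.16e-06) and 0.83 ± 0.09 (adjusted p = 5.85e-05). With DSF it read 115, 115, 112 and 107 CPM under LPS and 85.6, 87.5, 88.9 and 83.9 CPM under IL4CD40, and the latter lay within the range of the unstimulated libraries. The DSF changes were -0.59 ± 0.04 (adjusted p = 2.87e-12) and -0.86 ± 0.06 (adjusted p = 1.08e-06). They differed by -0.27 ± 0.07 (adjusted p = 0.0149), a call that was lost with total counts (adjusted p = 0.0538), with all genes of any count (adjusted p = 0.0606) and in the fit of all 20 libraries (adjusted p = 0.207).

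Against unstimulated cells Birc2 was at -0.02 ± 0.08 with IL4CD40 and DSF (adjusted p = 0.800) and at 0.34 ± 0.08 with LPS and DSF (adjusted p = 0.00362), the latter becoming -0.07 with total counts. Across the 20 libraries of the first experiment the log2 levels of Birc2 and Birc3 had a Pearson correlation of 0.95, given as a description, since the libraries share 5 conditions.

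**Figure D3:**
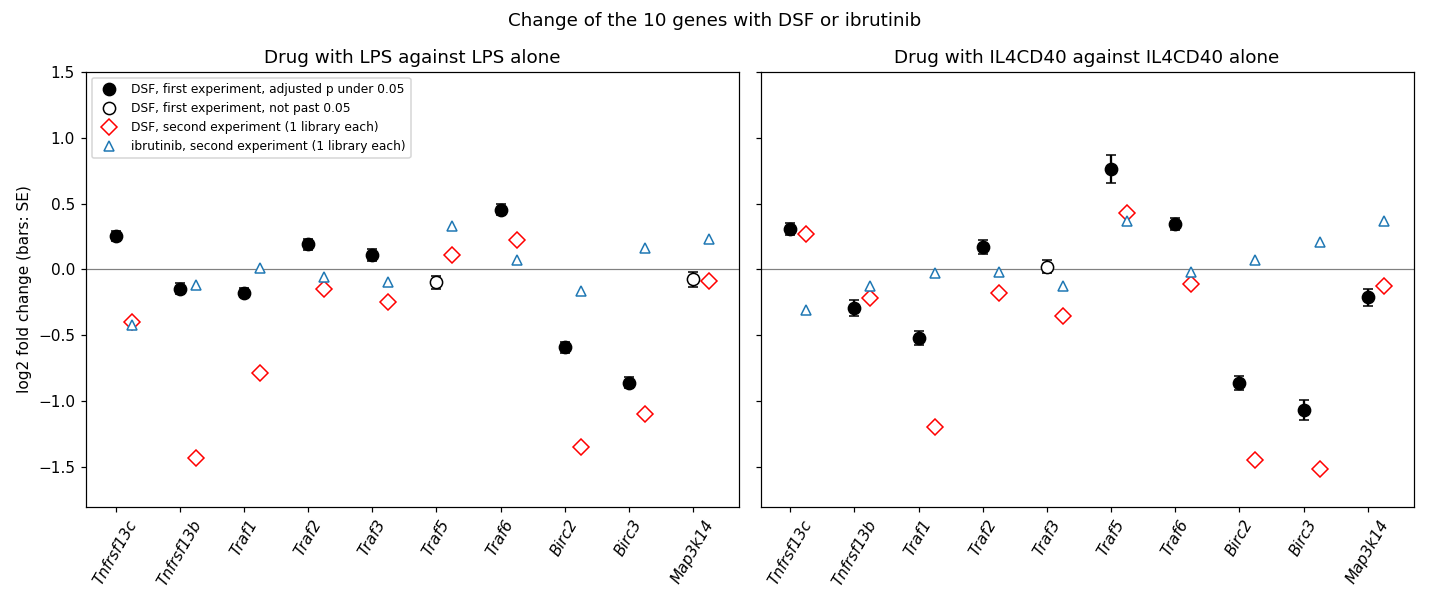
Log2 fold change of each gene with DSF or ibrutinib against the same stimulus alone, with LPS (left) and IL4CD40 (right): DSF in the first experiment (circles, bars SE, 4 libraries against 4, filled where the adjusted p is under 0.05), and DSF (diamonds) and ibrutinib (triangles) in the second (1 library each). Birc2, Birc3 and Traf1 are lower with DSF in both experiments, and no ibrutinib value reaches 2-fold.

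Map3k14 (chr11:103219762-103267472, minus strand) encodes NIK, the kinase on which the non-canonical pathway turns. It read 101, 104, 106 and 92.9 CPM in unstimulated cells, and 52.2, 56.0, 55.5 and 63.6 CPM with LPS, without overlap. The log2 change of -0.83 ± 0.07 (adjusted p = 2.4e-05) amounted to a level 1.78-fold lower. It was -0.86 and -0.78 with either pair of unstimulated libraries. With IL4CD40 the gene read 86.2, 94.9, 93.6 and 86.0 CPM, overlapping the unstimulated range, and the change of -0.11 ± 0.07 did not pass (adjusted p = 0.204). The stimuli differed by 0.66 ± 0.07 (adjusted p = 7.27e-06), higher with IL4CD40.

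DSF left Map3k14 at 52.1 to 54.4 CPM under LPS (-0.08 ± 0.06, adjusted p = 0.233), a change that passed without LPS library 1 (-0.14, adjusted p = 0.0382) and with total counts (-0.28, adjusted p = 7.99e-05). Under IL4CD40 it read 82.4, 88.8, 73.7 and 80.1 CPM with DSF, a change of -0.21 ± 0.07 (adjusted p = 0.0156) in groups that overlapped. That call was lost without library 2 of the IL4CD40 group (-0.17, adjusted p = 0.0622) and in the fit of all 20 libraries (-0.15, adjusted p = 0.0636). Part of the Map3k14 span is also annotated as 1700028N14Rik on the same strand.

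**Figure D4:**
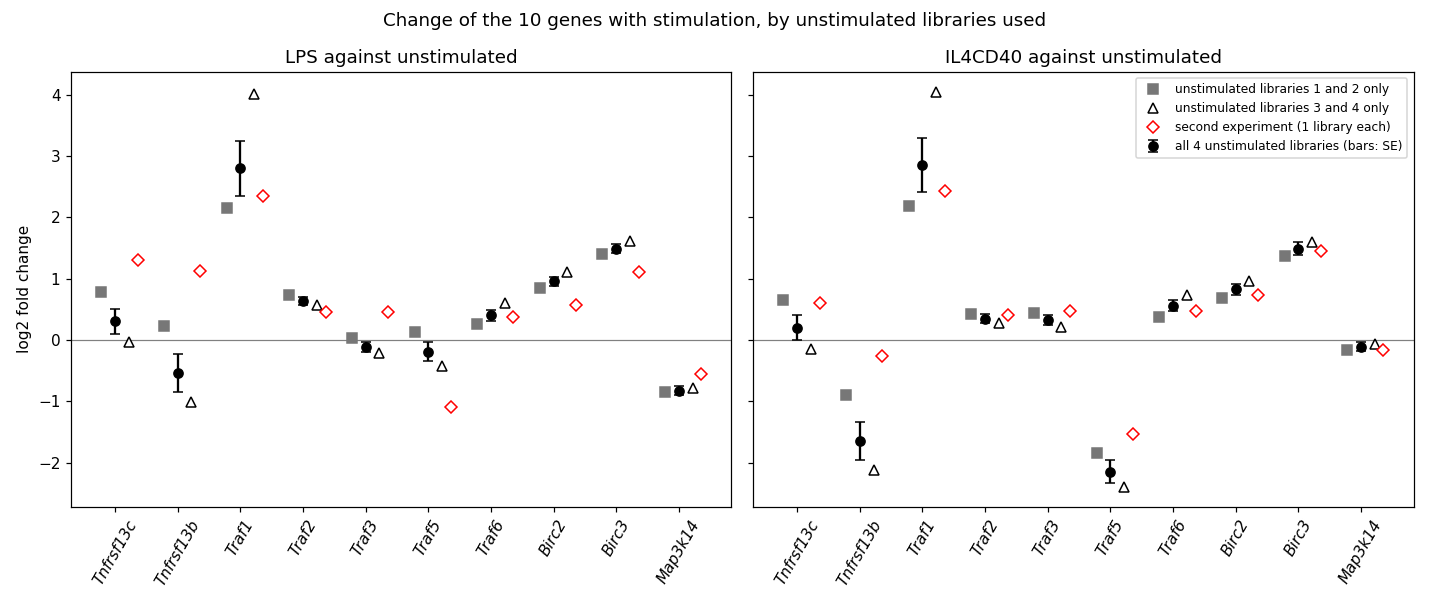
Log2 fold change of each gene with LPS (left) or IL4CD40 (right) against unstimulated B cells, with all 4 unstimulated libraries (circles, bars SE), libraries 1 and 2 only (squares), libraries 3 and 4 only (triangles) and in the second experiment (diamonds, 1 library each). Tnfrsf13b and Traf5 change sign with LPS between the pairs (0.23 against -1.01, and 0.14 against -0.43), and Tnfrsf13c does so with LPS (0.78 against -0.03) and IL4CD40 (0.65 against -0.14), while Birc2, Birc3, Traf6 and Map3k14 keep theirs.

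Over the set, the DSF changes under the 2 stimuli, which come from different libraries without shared controls, differed past the threshold for 3 of the 10 genes, Traf1, Traf5 and Birc2, where 14.9% of all genes did. The difference was positive for 1 (background 6.96%) and negative for 2 (7.92%). Levels with stimulus and DSF were also set against unstimulated cells. With LPS and DSF 7 genes differed (background 71.6%), 6 up (34.3%) and 1 down (37.3%). With IL4CD40 and DSF 9 did (background 68.7%), 6 up (33.4%) and 3 down (35.3%). With total counts both splits were 3 up and 4 down, without shares over all genes beside them. The Tnfrsf13c calls in these comparisons (0.53 and 0.52) were lost on leaving out any of the DSF-treated libraries of the comparison, or unstimulated library 1 or 2 (adjusted p = 0.0680 to 0.101). Among DSF-treated B cells the B cell markers summed to 3800 to 3869 CPM under LPS and 4961 to 5200 CPM under IL4CD40, against 5432 to 5579 CPM and 7674 to 9287 CPM without DSF. Under IL4CD40 the largest fall was in Fcer2a, from 2431 to 3529 CPM without DSF to 957 to 1099 CPM with it. Blk (202 to 334 against 563 to 593 CPM with DSF), Cd79a and Ebf1 rose there, and Ms4a1 overlapped. Under LPS only Blk rose (208 to 234 against 457 to 488 CPM). The part of these markers, and of the myeloid markers given above, in the DSF changes was not tested.

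Of 36 further genes of CD40, BAFF receptor and NF-κB signalling, 33 were tested, and Cd40lg, Tnfrsf17 and Tnfsf13 had at most 14 counts in any library. With LPS 22 rose and 7 fell (66.7% and 21.2% of those tested, where 29.6% and 33.3% of all genes did), or 17 and 9 with total counts, at a median log2 change of 0.51 against -0.05 over all genes. With IL4CD40 18 rose and 7 fell (54.5% and 21.2%, background 30.4% and 32.1%), at a median of 0.37 against -0.04. On total counts 15 rose and 8 fell. The list was chosen with earlier results of these data known. The largest rises with LPS were in Tnfaip3, the NF-κB inhibitor A20 (3.16 ± 0.18), in Cd40 itself (2.44 ± 0.10) and in Nfkbia, the gene of IκBα (2.05 ± 0.07). With IL4CD40 they were in Tnfaip3 (3.11 ± 0.19), the kinase gene Ikbke (2.48 ± 0.10) and Cd40 (1.78 ± 0.10). Traf3ip3, which encodes a protein that binds TRAF3, had the largest fall under both stimuli, at -1.58 ± 0.16 and -2.64 ± 0.17. Nfkb2 rose by 1.24 ± 0.09 and 1.09 ± 0.10 and Relb by 0.90 ± 0.14 and 0.86 ± 0.14, all past the threshold in edgeR.

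With DSF under LPS 7 genes of the list rose and 13 fell (21.2% and 39.4%, where 35.1% and 36% of all genes did), at a median of -0.03 against 0.00 over all genes. The split was 10 against 11 with at least 10 counts in every sample, 5 against 8 in the fit of all 20 libraries and 4 against 25 on total counts. Under IL4CD40 5 rose and 16 fell (15.2% and 48.5%, background 30.1% and 31.6%), at a median of -0.12 against -0.02, with 7 against 11 in the fit of all 20 libraries and 3 against 23 on total counts. Jak3, the kinase beneath the IL-4 receptor, fell most, by 1.60 ± 0.06 and by 1.54 ± 0.07 on the log2 scale. Rbck1, a part of the linear ubiquitin ligase, fell by 0.76 ± 0.04 and by 0.80 ± 0.07, while Tbk1, a kinase that TANK binds, rose by 1.01 ± 0.04 and 0.81 ± 0.09. Tank rose with it, by 0.76 ± 0.04 and 0.46 ± 0.05. Nfkb2 fell by 0.11 ± 0.04 under LPS (adjusted p = 0.0172) and by 0.48 ± 0.05 under IL4CD40 (adjusted p = 9.2e-06), and the 2 changes differed (-0.37 ± 0.06, adjusted p = 0.000297). In the fit of all 20 libraries the Nfkb2 fall under LPS (-0.12, adjusted p = 0.130) and the difference (-0.30, adjusted p = 0.0711) were not past the threshold. Relb read a change of 0.04 ± 0.04 and 0.02 ± 0.05, neither past the threshold, and Cd40 0.08 ± 0.04 (adjusted p = 0.104) and -0.16 ± 0.06 (adjusted p = 0.0260). The Cd40 call under IL4CD40 was lost in the fit of all 20 libraries (-0.10, adjusted p = 0.292), and with total counts Relb and Cd40 were at -0.17 and -0.13 under LPS, both past the threshold (adjusted p = 0.000575 and 0.0133), as was Relb under IL4CD40 (-0.13, adjusted p = 0.0256).

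Between the stimuli 4 genes of the list were higher and 15 lower with IL4CD40 (background 17.3% and 22.3%; median -0.12, all genes 0.01), or 8 and 10 with total counts and 4 and 10 in the fit of all 20 libraries. Ikbke was the highest at 0.50 ± 0.08, followed by Otud7b, a deubiquitinase of TRAF3, at 0.46 ± 0.05. Traf3ip3 was the lowest at -1.12 ± 0.07, with the linear ubiquitin ligase subunit Rnf31 at -0.90 ± 0.09 and Tnip1, which binds A20, at -0.84 ± 0.07. Cd40 was lower with IL4CD40 than with LPS (-0.71 ± 0.05, adjusted p = 3.09e-07). With stimulus and DSF against unstimulated cells 20 were higher and 9 lower under LPS (background 34.3% and 37.3%) and 15 and 10 under IL4CD40 (33.4% and 35.3%), with 15 and 13, and 13 and 16, on total counts. The DSF change itself differed between the stimuli for 9 genes of the list, 1 higher and 8 lower with IL4CD40 (3.03% and 24.2% of those tested, where 6.96% and 7.92% of all genes did; median -0.08, all genes -0.02). In the fit of all 20 libraries 1 was higher and 0 were lower, so that all 8 lower calls were lost. Traf3ip3 was the one that was higher (0.67 ± 0.09), and it rose with DSF under IL4CD40 (0.31 ± 0.07; 0.17 and not past the threshold with total counts, adjusted p = 0.0951) and fell under LPS (-0.35 ± 0.05). Tnfaip3 (-0.49 ± 0.07) and Rnf31 (-0.46 ± 0.12) had the largest negative differences, at -0.41 (adjusted p = 0.171) and -0.39 (adjusted p = 0.0951) in the fit of all 20 libraries.

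Over the 20 libraries, the tested genes whose log2 levels followed Traf1 most closely were Fnbp1, Ppan and Cebpz, with Pearson correlations of 0.996, 0.994 and 0.993. For Tnfrsf13c they were Actb, Rpl10a and Snora31 (0.937, 0.912 and 0.911), and for Map3k14 they were Csf1r, Rassf2 and Bmp2k (0.961, 0.960 and 0.955). Csf1r is a macrophage marker and is 1 of the 11 myeloid markers whose sum is given above. Unstimulated cells held 76.6 to 128 CPM of Csf1r in the first experiment and 4.70 CPM in the second. Map3k14 read 114 CPM in that unstimulated library of the second experiment, and changed there by -0.55 with LPS and -0.17 with IL4CD40 on the log2 scale. The part of Csf1r-bearing cells in the Map3k14 level was not tested. Within the set, Tnfrsf13b and Traf5 had a correlation of 0.88. These points share 5 conditions and the split of the unstimulated libraries.

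In the second experiment, with 1 library a condition and no test, 3 of the 10 genes were at least 2-fold lower with LPS and DSF than with LPS, and none was at least 2-fold higher (background 39.8% of 14275 genes past 2-fold, 20.3% higher and 19.5% lower). These were Tnfrsf13b at -1.43, Birc2 at -1.34 and Birc3 at -1.10 on the log2 scale. With IL4CD40 they were Birc3 at -1.51, Birc2 at -1.45 and Traf1 at -1.19 (background 42.2%, with 21.9% higher and 20.3% lower). In CPM, Birc3 read 741 with LPS and 347 with LPS and DSF, and 940 with IL4CD40 and 329 with DSF added. Birc2 read 149.6 and 58.9, and 168 and 61.7, in the same order, with 101 in the unstimulated library. Both ligase genes were thus lower with DSF in both experiments under both stimuli.

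Several other members differed between the experiments in size or sign. The log2 change of Tnfrsf13b with LPS and DSF was -1.43 there and -0.15 in the first experiment, and its level with LPS alone was 199.8 CPM against 155 to 167 CPM. Tnfrsf13c changed by -0.40 there and by 0.25 in the first experiment with LPS. With IL4CD40 and DSF both receptor genes kept the sign of the first experiment, Tnfrsf13c at 0.27 and Tnfrsf13b at -0.22. Map3k14 was at -0.09 with LPS and -0.12 with IL4CD40 there. It was also negative under both stimuli in the first experiment, past the threshold only with IL4CD40. Traf6 was at 0.23 with LPS and -0.11 with IL4CD40 there, against 0.45 and 0.35. Traf2 and Traf3 had the opposite sign there under both stimuli. Traf2 was at -0.15 with LPS and -0.18 with IL4CD40, against rises of 0.19 and 0.17. Traf3 was at -0.25 and -0.35, against a rise of 0.11 with LPS and a value of 0.02 with IL4CD40 that had not passed. Traf5 was at 0.11 with LPS and DSF, against -0.10 (not past the threshold), and at 0.43 with IL4CD40 and DSF, against 0.76. With 1 library a condition these differences have no replicate check.

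Stimulation alone put 5 genes past 2-fold with LPS in the second experiment, namely Traf1 at 2.34, Tnfrsf13c at 1.30, Tnfrsf13b at 1.13, Birc3 at 1.11 and Traf5 at -1.10 on the log2 scale (background 18.5%, with 8.62% higher and 9.88% lower). With IL4CD40 there were 3, Traf1 at 2.43, Traf5 at -1.53 and Birc3 at 1.45 (background 24.4%, with 10.7% higher and 13.7% lower). Traf5 with LPS, at 44.0 CPM against 94.4 CPM unstimulated, was lower there, while the first experiment put it at 57.3 to 59.5 CPM against 53.3 to 82.9 CPM. With IL4CD40 it was the lowest of the 3 conditions without drug in both experiments.

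Ibrutinib was used at the same dose and time as DSF, and at that match the 2 drugs can be set side by side in the second experiment. None of the 10 genes was past 2-fold with ibrutinib under LPS (background 5.28%, with 2.81% higher and 2.47% lower) or under IL4CD40 (background 3.92%, with 2.23% higher and 1.69% lower), and the log2 values ran from -0.42 for Tnfrsf13c with LPS to 0.37 for Map3k14 with IL4CD40. Birc3 read 831 CPM with LPS and ibrutinib and 1086 CPM with IL4CD40 and ibrutinib, against 347 and 329 CPM with DSF. Birc2 read 133 and 177 CPM with ibrutinib against 58.9 and 61.7 CPM with DSF, and Traf1 read 618 and 640.2 CPM against 356 and 285 CPM. The drugs were compared in single libraries, so no spread is attached to these differences.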

How the data were processed

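Splenic B cell RNA was sequenced in 27 libraries. After Fastp trimming the authors aligned reads to mm10 by HISAT2 2.0.5 at default settings and obtained gene counts by featureCounts 1.5.0-p3; the gene counts were deposited without normalization, and the FPKM deposited beside them were calculated by the authors from counts and gene length. The annotation release and the strand setting are not given in the sources used here. Gene spans equal those of GENCODE vM21.

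Counts of the first experiment were tested per comparison on its own groups by the quasi-likelihood method of edgeR 4.0.16 under R 4.3.3, after filterByExpr and TMM scaling, with Benjamini-Hochberg adjustment over all genes tested and 0.05 as threshold. The DSF changes under both stimuli were compared as an interaction over 16 libraries. Alternatives were DESeq2 1.42.0, its size factors, total counts, 2 other filters, one fit of all 20 libraries, a replicate block, a lower limit of 1 on the absolute log2 change and leaving out each library. The edgeR and DESeq2 tests were first tried on simulated data for 2 comparisons, DSF with LPS and the interaction. That simulation held no unstimulated cells and no pairs of libraries, so it does not bear on the split of the unstimulated libraries. Single libraries of the second experiment were compared as log2 ratios of TMM-scaled CPM with a prior count of 2, among genes whose mean count was 10 or more. The labels number the replicates 1 to 4 in each group; same-numbered libraries deviated together with correlations of -0.06 to 0.17 over 40 pairs, so the numbers were not taken as pairs.

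The 10 genes, the 36 further genes and the marker lists were chosen with earlier results of these data known. All 10 genes were named; of the 36, up to 3 per direction with the largest change, and always Cd40, Nfkb2 and Relb. The 3 genes most like Traf1, Tnfrsf13c and Map3k14 were taken by Pearson correlation. Every member had 269 or more counts in each library of the first experiment. Counting error was not separated from the spread between libraries.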

Additional observations from a re-analysis of the deposited data

Results flagged for a closer look

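The change with DSF differed between the stimuli for 3 of the 10 genes (background 14.9%), as tested by the difference itself over 16 libraries in edgeR. For Traf5 the log2 change with IL4CD40 minus that with LPS was 0.87 (adjusted p = 1.37e-05), with all 4 libraries with IL4CD40 and DSF above all 4 without DSF. For Traf1 it was -0.34 (adjusted p = 0.00115) and for Birc2 it was -0.27 (adjusted p = 0.0149). The Traf1 and Birc2 calls were lost in the fit of all 20 libraries. That for Birc2 was also lost with total counts and with all genes of any count.

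Among 50 groups of 4 libraries, 10 genes in 5 groups, 1 held a library far from the others by Dixon's 95% critical value, where chance alone gives about 1 in 20 groups. Traf3 read 157 CPM in library 3 of IL4CD40 and DSF, against 173 to 174 CPM in the other 3. The unstimulated group was not marked by that measure, since its libraries form 2 pairs and not a single library apart.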

How the results depend on the processing

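With DESeq2 and with its size factors no member changed direction, and 79 and 80 of 80 gene results stayed on their side of the threshold. The fit with the replicate block gave 6, 8, 7, 8, 9, 7, 9 and 3 members called, the same counts as without the block, and changed no call of a member. Requiring a log2 fold change of at least 1 left 2 genes for LPS and 4 for IL4CD40 against unstimulated cells, 2 between the stimuli, 0 for DSF with LPS, 1 for DSF with IL4CD40, 1 and 3 for the stimuli with DSF against unstimulated cells, and 0 for the difference between the DSF changes. In one fit of all 20 libraries 4 genes were called for DSF with LPS and 1 for the difference. Shares over all genes were not taken for either setting. With total counts Traf1 read 0.13 between the stimuli, Traf2 -0.018 and Traf3 -0.10 for DSF with LPS, and Birc2 -0.068 for LPS and DSF against unstimulated cells, each with the sign turned, and 3 genes passed 2-fold for LPS against unstimulated in the second experiment. Against unstimulated libraries 1 and 2 alone Tnfrsf13b read 0.23 and Traf5 0.14 with LPS, also turned. Against libraries 3 and 4 alone Tnfrsf13c read -0.03 with LPS and -0.14 with IL4CD40, neither past the threshold, where libraries 1 and 2 gave rises of 0.78 and 0.65. These 2 alternatives were added after the data had been seen.

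Leaving out 1 library at a time gave 6 to 7 members called for LPS and 8 to 8 for IL4CD40 against unstimulated cells, 7 to 7 between the stimuli, 7 to 9 and 8 to 9 for DSF with LPS and with IL4CD40, 6 to 8 and 8 to 9 for the stimuli with DSF against unstimulated cells, and 3 to 4 for the difference between the DSF changes. Of 720 such gene results, 689 stayed on their side of the threshold, 19 lost a call and 12 gained one. Reasons for the split of the unstimulated libraries were not tested, and the comparisons with unstimulated cells are limited by it. Single libraries of the second experiment give no error.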
